A study of Mus musculus with 6 samples.

Results

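Glycolysis and hypoxia response genes were described here as 34 mouse genes taken by symbol from a count table of 23420 genes, 21 of them glycolysis genes and 13 hypoxia response genes. The table holds RNA sequencing counts from the cortex of mouse embryos at embryonic day 18.5. The 3 libraries labelled Tshz3 mutant were compared with 3 labelled wild type, and each library was a pool of cortices from 3 to 4 embryos of several litters. Tshz3 encodes a zinc finger transcription factor, and the study asked which cortical transcripts differ when it is mutated. The sources used here do not state the allele, the cells it affects or the strain, and they name no treatment for either group. All 34 genes had a row in the table, and 32 had enough reads to be tested. The 2 others were Eno1, which had at most 3 reads in a library and has a near-identical copy in the table, and Car9, which had at most 7.

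Glycolysis turns glucose into pyruvate in the cytosol through a chain of enzymes, and lactate dehydrogenase then interconverts pyruvate and lactate. Pyruvate dehydrogenase kinases restrain pyruvate dehydrogenase and so the use of pyruvate inside mitochondria. Monocarboxylate transporters carry lactate and pyruvate across the cell membrane. Hif1a encodes the oxygen-regulated subunit of hypoxia-inducible factor 1, which is hydroxylated by the Egln prolyl hydroxylases and degraded when oxygen is plentiful. When oxygen is low the factor accumulates and raises transcription of most of the genes described here, so that glycolysis and hypoxia genes often rise together. In the embryonic brain both programmes are active in progenitors and growing vessels, and the bulk counts cannot tell fewer cells of a type from less RNA per cell.

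Total counts ran from 19894144 to 24147810 in mutant-labelled libraries and from 18569383 to 21052832 in wild-type libraries. Levels are given as CPM, which are counts scaled to library size and composition, or as TPM, which are also divided by exon length. Tshz3 was 89.8, 93.1 and 99.2 CPM in mutant-labelled libraries and 78.7, 83.0 and 89.3 CPM in wild-type libraries. It was therefore not lower, and because the mutated part of the gene is not given, the gene-level count does not check the labels. The 10 neocortex markers were all detected, with sums of 2855 to 3087 CPM in mutant-labelled and 2725 to 3019 CPM in wild-type libraries. Ttr, which marks choroid plexus, was 787, 182 and 143 CPM in mutant-labelled libraries 1 to 3 and 800.2, 115 and 219 CPM in wild-type libraries 1 to 3, so both libraries numbered 1 stood apart. Meningeal markers summed to 352, 127 and 109 CPM in mutant-labelled libraries and 429, 275 and 87.3 CPM in wild-type libraries. Of the neocortex markers 3 rose in the paired fit described next. None of 7 meningeal, 8 microglial, 7 pericyte, 11 endothelial, 3 erythroid, 10 adjoining-region or 6 choroid plexus markers tested was called in the unpaired or the paired fit.

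With edgeR's quasi-likelihood test on the 6 libraries, no glycolysis or hypoxia gene reached the adjusted p threshold of 0.05. In that test 0.0479% of the 14618 tested genes were called higher and 0.0274% lower in mutant-labelled libraries, so few calls were to be had at all. At an unadjusted p under 0.05 there were 0 of 20 glycolysis genes and 1 of 12 hypoxia genes, Ndrg1, and DESeq2 called 0 and 1 in the same groups. Of all 14618 tested genes 599 were higher and 438 lower at that unadjusted p. DESeq2 called 59 higher and 43 lower among all genes. Libraries with the same number deviated together, and with the number as a block 1.97% of tested genes were called higher and 1.49% lower. In this paired fit 1 of 20 glycolysis genes fell, Gpi1, and 1 of 12 hypoxia genes rose, Ndrg1, while the other 30 did not pass. On simulated counts with paired libraries this fit made more false calls than its threshold allows, so its adjusted p-values, here and for each gene named below, are likely too small. Without pair 2 the paired fit called 2 higher and 3 lower glycolysis genes and 2 higher and 1 lower hypoxia genes, but it then called 1119 higher and 755 lower genes in all. Without pair 3 it called none of either group and 62 genes in all, and without pair 1 it called Ndrg1 alone and 295 genes in all.

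Most members had log2 fold changes close to 0 and narrow intervals. The median log2 fold change, mutant-labelled over wild type, was −0.02 over the glycolysis genes and 0.03 over the hypoxia genes, beside −0.01 over all tested genes. Taken without sign, the median log2 fold change was 0.05 over the 32 members and 0.09 over all tested genes. The log2 fold change was smaller than 0.15 in size for 27 of the 32, a count that was not taken over all genes. For 30 of them the 95% interval of the unpaired difference lay wholly within a 1.5-fold change in either direction. The 2 others were Slc16a3 and Adm, both with few reads, and Adm also with a wide spread between libraries. Across the 3 number pairs 3 genes were higher each time, namely Pfkfb3, Slc16a1 and Ndrg1, and 4 were lower each time, namely Hk1, Gpi1, Pfkp and Bnip3. Among all tested genes 19.3% were higher and 19.8% lower in each pair, so these counts are not above the share in the whole table.

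**Figure D1:**
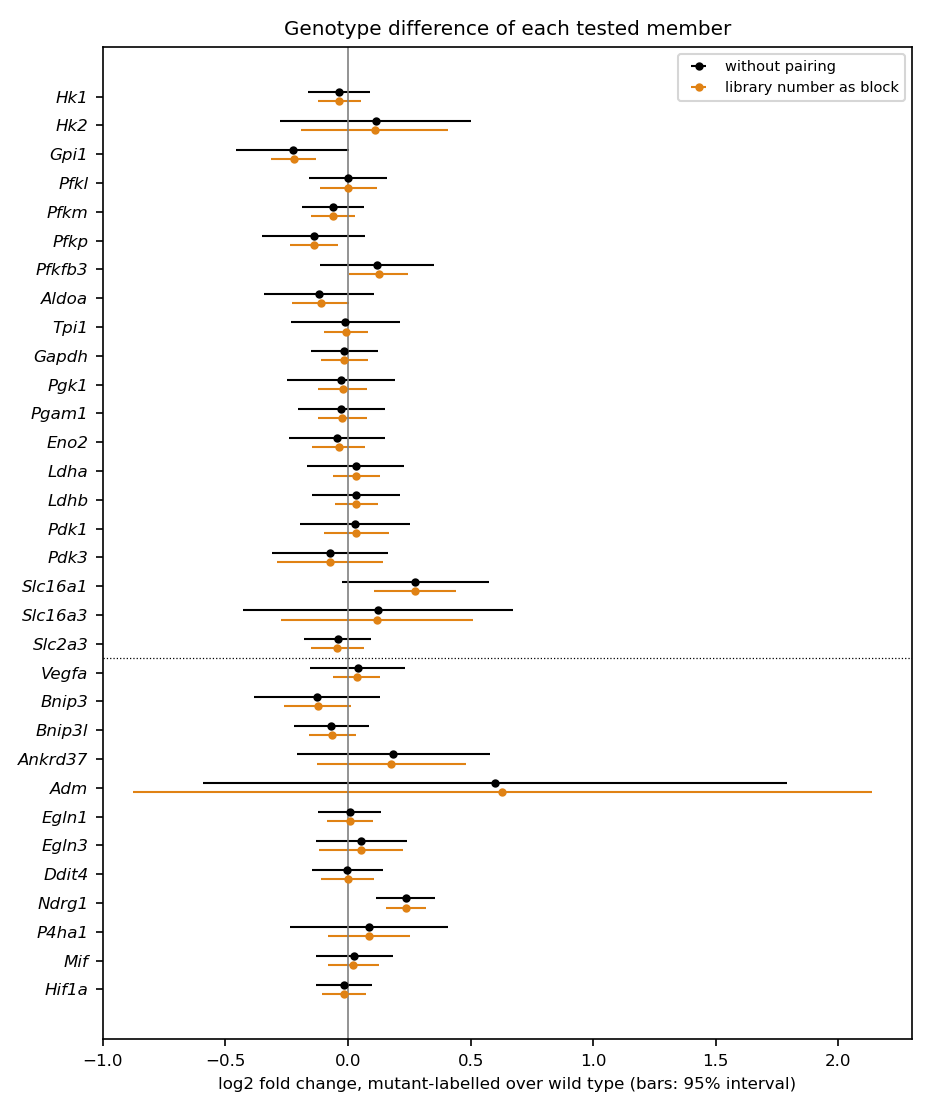
Log2 fold change (horizontal axis, mutant-labelled over wild type) of the 32 tested genes, with 95% intervals as bars, black without pairing and orange with the library number as a block. Glycolysis genes stand above the dotted line and hypoxia genes below it. Only Ndrg1 has both intervals away from 0, the paired interval alone excludes 0 for Gpi1 and Pfkp on the low side and for Pfkfb3 and Slc16a1 on the high side, and Adm has the widest bars.

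Levels per length differed widely among the glycolysis genes. The phosphoglycerate mutase gene Pgam1 averaged 566 ± 11.9 TPM in mutant-labelled and 568 ± 42.1 TPM in wild-type libraries (SD, n = 3 each), the highest of the glycolysis genes. Ldhb, Gapdh, Pgk1 and Ldha followed at wild-type means of 490.5, 477, 441 and 403 TPM, and neighbours among these 4 did not differ beyond their spread. The transporter genes Slc2a3, Slc16a1 and Slc16a3 averaged 40.4, 26.5 and 2.57 TPM in mutant-labelled libraries and 41.0, 21.6 and 2.32 TPM in wild-type libraries. Among hypoxia genes Mif, which encodes a small cytokine, was highest at 1353 TPM in mutant-labelled and 1312 TPM in wild-type libraries, and Adm lowest of those tested at 5.29 and 3.47 TPM.

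**Figure D2:**
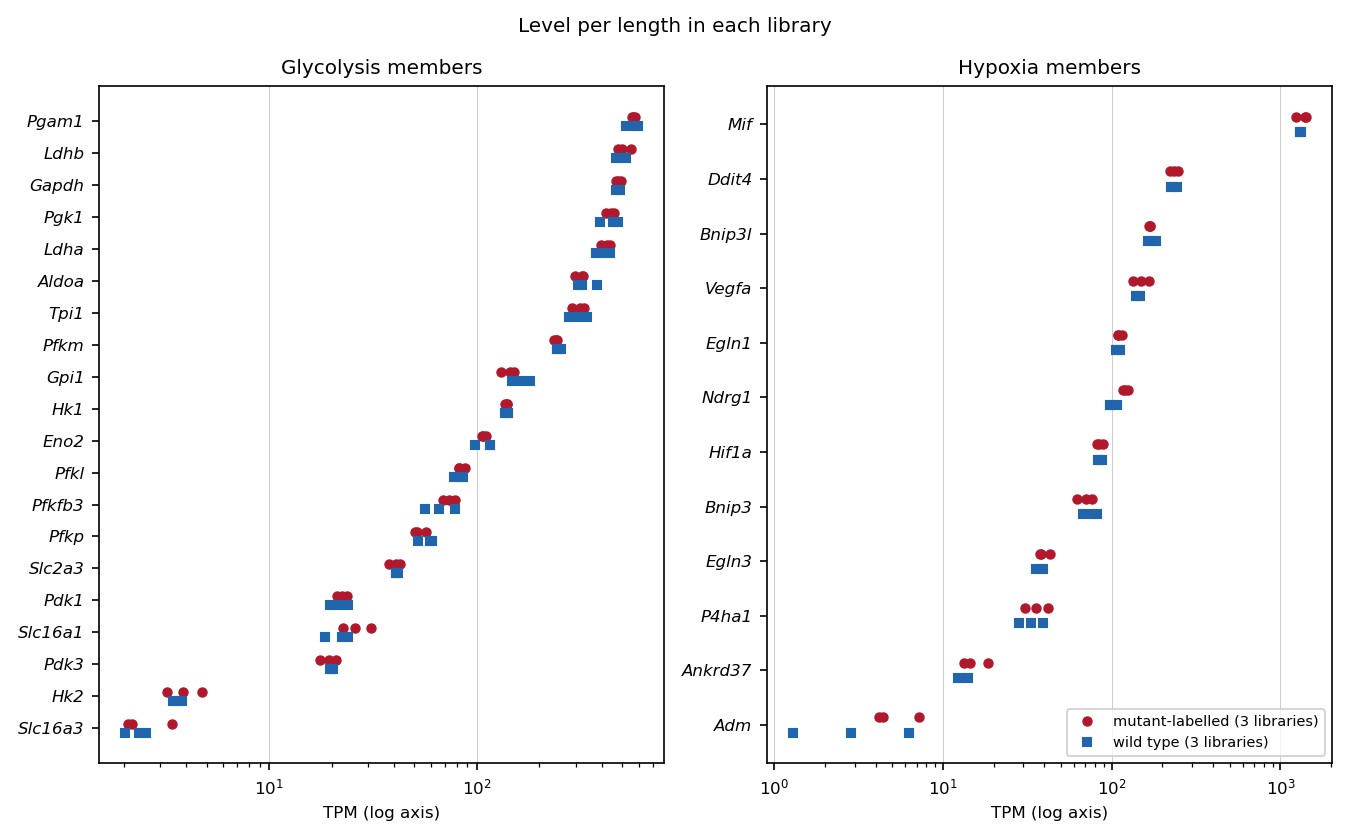
Level per length (horizontal axis, TPM on a log scale) of each gene in each library, with mutant-labelled libraries as red circles above wild-type libraries as blue squares, genes ordered by wild-type mean. Eno1 and Car9 are left out for lack of reads. Within a gene the circles and squares mostly overlap, while levels between genes span from a few TPM for Slc16a3 to a wild-type mean of 1312 TPM for Mif.

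Hexokinases phosphorylate glucose on entry. Hk1, the form usual in brain, was 286, 277 and 291 CPM in mutant-labelled libraries and 302, 278 and 296 CPM in wild-type libraries, and the groups overlapped. Hk2, an inducible form, was 5.51, 6.80 and 4.73 CPM in mutant-labelled libraries and 5.31, 5.41 and 5.06 CPM in wild-type libraries. Per length, Hk1 made up 96.6% to 97.7% of the pair in mutant-labelled libraries and 97.3% to 97.6% in wild-type libraries.

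Gpi1, the glucose-6-phosphate isomerase that carries out the next step, had the lowest log2 fold change of all 32. Its level was 235, 202 and 227 CPM in mutant-labelled libraries 1 to 3 and 291, 227 and 259 CPM in wild-type libraries 1 to 3. The groups overlapped, since wild-type library 2 lay below mutant-labelled library 1, but each mutant-labelled library was below the wild-type library of its number, with log2 ratios of −0.31, −0.17 and −0.19. The log2 fold change was −0.23 (SE 0.10, n = 3 per group, edgeR adjusted p = 0.717). It was −0.14 without wild-type library 1 and −0.31 without wild-type library 2. Paired it was −0.22 (SE 0.04, edgeR adjusted p = 0.0100), and the paired adjusted p was 0.0730 without pair 1 and 0.187 without pair 3. Gpi1 lies on the minus strand of chr7:34201330-34230336 in GRCm38, 2.47 Mb from Tshz3 at chr7:36698118-36773553, and no other member lies within 5 Mb of Tshz3. The nearest other member on the chromosome was Ldha, 10.1 Mb from Tshz3, with a log2 fold change of 0.03. Apart from Gpi1, the median over the other 19 glycolysis genes was −0.02, none of them passed either fit on all 6 libraries, and 7 had positive and 12 negative log2 fold changes.

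Phosphofructokinase commits the sugar to glycolysis, and its 3 subunit genes were all expressed. Pfkm made up 62.9% to 64.3% of the 3 per length in mutant-labelled and 62.5% to 65.1% in wild-type libraries. Pfkl made up 21.9% to 23.0% in mutant-labelled and 20.9% to 21.8% in wild-type libraries, and Pfkp the rest. The Pfkl share was higher in each mutant-labelled library than in each wild-type library, by a narrow margin and without a test. The Pfkm and Pfkp shares overlapped between the groups. The level of Pfkl itself also overlapped, with a log2 fold change of −0.001 (SE 0.07). Pfkp had the next lowest log2 fold change after Gpi1, with 166, 162 and 186 CPM in mutant-labelled libraries and 199, 166 and 202 CPM in wild-type libraries. That log2 fold change was −0.14 (SE 0.09, edgeR adjusted p = 0.827, paired 0.119). Pfkfb3, which makes the activator of phosphofructokinase, was 133, 141 and 128 CPM in mutant-labelled libraries and 107, 141 and 123 CPM in wild-type libraries, with paired adjusted p = 0.273.

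None of the tested enzyme genes from aldolase to lactate dehydrogenase passed either fit on all 6 libraries. Aldoa, which splits the 6-carbon sugar, was 224, 206 and 231 CPM in mutant-labelled libraries and 273, 213 and 230.3 CPM in wild-type libraries. Its log2 fold change was −0.12 (SE 0.10, edgeR adjusted p = 0.879, paired 0.305). Gapdh, the dehydrogenase often used as a reference transcript, was 477 ± 19.4 CPM in mutant-labelled and 482 ± 22.6 CPM in wild-type libraries (SD, n = 3 each). Its log2 fold change of −0.02 had a 95% interval of −0.15 to 0.12. For the ATP-forming kinase Pgk1 the log2 fold change was −0.03 (SE 0.09), for the triose isomerase Tpi1 −0.01 (SE 0.10), for Pgam1 −0.03 (SE 0.08) and for Eno2, the neuronal enolase, −0.04 (SE 0.08). All of these groups overlapped. Ldha, the subunit favoured where lactate is made, was 349, 312 and 342 CPM in mutant-labelled libraries and 363, 294 and 325 CPM in wild-type libraries. Ldhb, the subunit favoured where lactate is used, was 209, 187 and 183 CPM in mutant-labelled libraries and 204, 175 and 187 CPM in wild-type libraries. Per length Ldha made up 44.1% to 47.0% of the pair in mutant-labelled libraries and 44.4% to 45.7% in wild-type libraries.

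Eno1, the enolase of most tissues, had 0 reads in each mutant-labelled library and 3, 1 and 0 reads in wild-type libraries 1 to 3, too few for a comparison. Gm5506, a row of the table for an intronless copy now annotated as Eno1b, held 1259, 1302 and 1082 reads in mutant-labelled libraries and 1397, 1096 and 1091 reads in wild-type libraries. Reads of the 2 genes cannot be told apart here, and the Gm5506 log2 fold change was −0.09 (SE 0.09, edgeR adjusted p = 0.922, paired 0.492). A search of annotated transcripts for other genes with at least 95% identity over at least 200 bases found 78 for Gapdh, 75 of them pseudogenes, 5 for Bnip3, and 4 each for Pgk1, Ldha and Mif. Gpi1, Tpi1, Pgam1, Ldhb and Bnip3l each had 1, a pseudogene, and Ndrg1 had 1 that is not a pseudogene and has no row in the table. How such reads were counted is not given, so the levels of these genes are uncertain. Pfkp shares 748 exon bases with Pitrm1 on the opposite strand and Ankrd37 shares 406 with Ufsp2 and Lrp2bp, and with the strand setting not given these 2 levels are uncertain too.

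Pyruvate dehydrogenase kinases and transporters did not pass either fit on all 6 libraries. Pdk1, the kinase induced by hypoxia, was 41.9, 39.4 and 45.2 CPM in mutant-labelled libraries and 41.5, 36.5 and 45.8 CPM in wild-type libraries. Pdk3 was 11.9 ± 0.921 CPM in mutant-labelled and 12.5 ± 0.212 CPM in wild-type libraries (SD, n = 3 each). Slc2a3, the neuronal glucose transporter, had a log2 fold change of −0.04 (SE 0.06). The monocarboxylate transporter gene Slc16a1 had the largest positive one of the glycolysis genes, with 32.7, 27.5 and 24.5 CPM in mutant-labelled libraries 1 to 3 and 24.7, 25.2 and 20.2 CPM in wild-type libraries 1 to 3. It was higher in 3 of 3 pairs, yet mutant-labelled library 3 lay below wild-type libraries 1 and 2, and the difference did not pass (log2 fold change 0.27, SE 0.13, edgeR adjusted p = 0.750, paired 0.0725). Slc16a1 is also expressed by brain endothelium, whose 11 markers summed to 322, 291 and 254 CPM in mutant-labelled libraries and 349, 300.3 and 258 CPM in wild-type libraries, and their part in these values was not tested. Slc16a3, a lactate exporter, was at 4.34, 2.67 and 2.87 CPM in mutant-labelled libraries and 3.13, 2.56 and 3.38 CPM in wild-type libraries.

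The glycolytic enzymes varied together between libraries more than between genotypes. Summed over 14 enzyme genes from hexokinase to lactate dehydrogenase, the level was 3137, 2942 and 3141 CPM in mutant-labelled libraries 1 to 3 and 3428, 2878 and 3208 CPM in wild-type libraries 1 to 3. The means were 3073 ± 114 CPM in mutant-labelled and 3172 ± 277 CPM in wild-type libraries (SD, n = 3 each), and without Gpi1 2852 ± 97.3 and 2913 ± 245 CPM. The groups overlapped. Among wild-type libraries number 1 was highest for 12 of the 14 genes and number 2 lowest for 13, and among mutant-labelled libraries number 2 was lowest for 10. Ttr followed the same order as the enzyme sum among wild-type libraries but not among mutant-labelled ones, where it was lowest in library 3, and the meningeal sum was lowest in library 3 of both groups. The part of other tissue in this pattern was not tested.

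**Figure D3:**
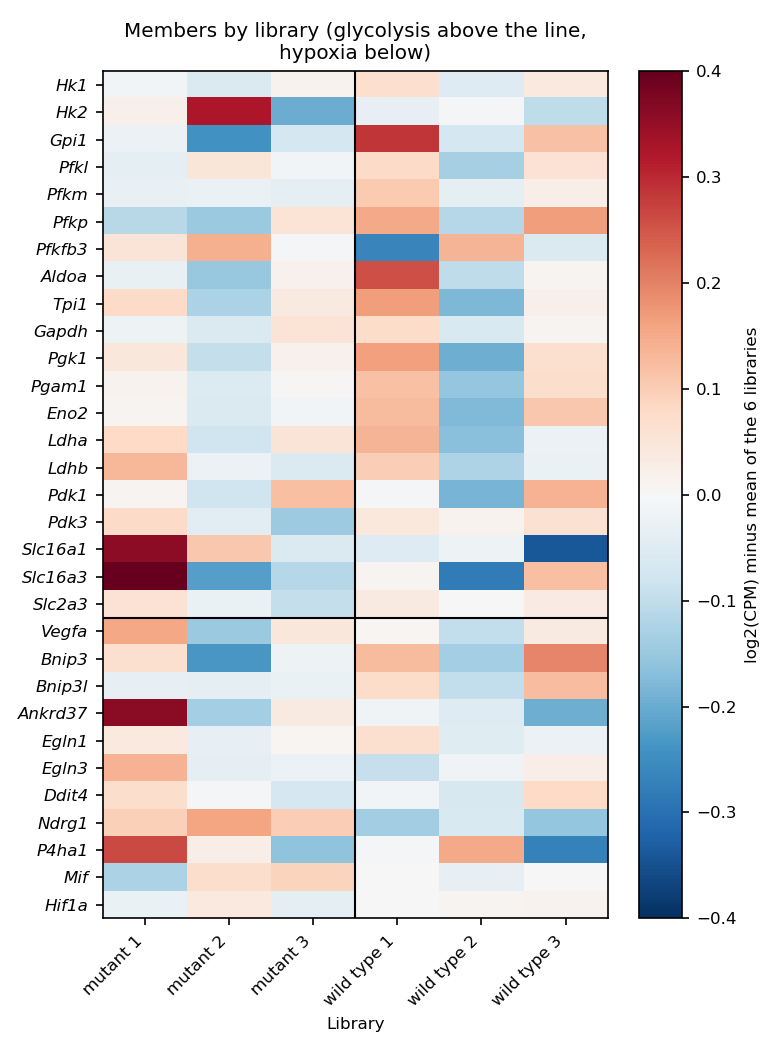
Deviation of each gene in each library from its mean over the 6 libraries (colour, log2 CPM, red above and blue below the mean), mutant-labelled libraries left of the vertical line and wild-type libraries right of it. Glycolysis genes stand above the horizontal line and hypoxia genes below, and Adm is left out because its deviations exceed the colour scale. Most enzyme rows are red in wild-type library 1 and blue in wild-type library 2, with Hk2 an exception, while the Ndrg1 row changes colour between the genotypes.

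Hypoxia-inducible factor binds DNA at the core letters ACGTG or GCGTG, and these were searched on both strands in the 250 bases before annotated start sites, from RefSeq on GRCm38.p6. At least 1 window held a match for 17 of 20 glycolysis genes and 10 of 11 hypoxia genes that had a window, or 85.0% and 90.9%. The share was 60.7% of 10726 tested genes and 41.5% of all 27025 genes with a window. Since some genes have several windows, the share was also taken per window, at 77.4% of 31 glycolysis and 83.3% of 12 hypoxia windows, beside 54.4% of 13776 windows of tested genes and 38.6% of all 32851. Slc2a3, Bnip3l and Ndrg1 had no window. A match describes letters and is not a measured binding site, and CACGTG counts as 2 matches because it holds the core on both strands. Gpi1 is printed as the glycolysis gene that fell in the paired fit, with 0 matches in its window. Slc16a1 is printed as the glycolysis gene with the largest positive log2 fold change, with 4 matches, and Ldha and Bnip3 as the genes with the most matches in each group, 5 each. Capitals mark the core letters, and each sequence runs toward the start site on the gene's own strand. The windows are chr7:34230337-34230586 on the minus strand for Gpi1, chr3:104638414-104638663 on the plus strand for Slc16a1, chr7:46845554-46845803 on the plus strand for Ldha and chr7:138909507-138909756 on the minus strand for Bnip3.
Gpi1: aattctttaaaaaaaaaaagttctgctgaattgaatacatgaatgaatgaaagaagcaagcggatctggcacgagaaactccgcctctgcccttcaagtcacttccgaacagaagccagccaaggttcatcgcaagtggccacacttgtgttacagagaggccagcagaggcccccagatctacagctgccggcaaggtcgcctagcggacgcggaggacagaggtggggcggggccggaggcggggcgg
Slc16a1: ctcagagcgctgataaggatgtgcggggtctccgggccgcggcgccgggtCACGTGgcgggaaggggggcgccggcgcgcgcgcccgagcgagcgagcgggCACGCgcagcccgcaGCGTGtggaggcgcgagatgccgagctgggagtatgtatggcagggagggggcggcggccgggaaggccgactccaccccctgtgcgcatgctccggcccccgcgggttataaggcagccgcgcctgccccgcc
Ldha: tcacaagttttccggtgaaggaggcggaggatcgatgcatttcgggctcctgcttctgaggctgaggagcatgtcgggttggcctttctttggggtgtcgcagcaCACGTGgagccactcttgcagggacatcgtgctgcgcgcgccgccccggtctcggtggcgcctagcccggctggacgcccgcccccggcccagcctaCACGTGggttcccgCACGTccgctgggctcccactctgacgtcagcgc
Bnip3: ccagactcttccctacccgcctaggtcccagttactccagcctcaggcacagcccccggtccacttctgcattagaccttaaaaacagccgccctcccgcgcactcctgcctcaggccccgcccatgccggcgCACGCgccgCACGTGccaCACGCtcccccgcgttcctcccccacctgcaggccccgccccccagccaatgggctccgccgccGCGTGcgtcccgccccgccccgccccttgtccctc

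Hif1a, Egln1 and Egln3 had similar transcript levels in both genotypes. Hif1a was 119, 125 and 118 CPM in mutant-labelled libraries and 121, 122 and 123 CPM in wild-type libraries, a log2 fold change of −0.02 with a 95% interval of −0.13 to 0.10. Hif1a is controlled mainly at the protein level, which was not measured here. Egln1, the main prolyl hydroxylase, was 96.5 ± 2.41 CPM in mutant-labelled and 96.1 ± 4.00 CPM in wild-type libraries (SD, n = 3 each). Egln3, a hydroxylase that is itself induced by hypoxia, was 27.6, 24.4 and 24.6 CPM in mutant-labelled libraries and 23.5, 24.8 and 25.5 CPM in wild-type libraries. The values of Egln1 and Egln3 overlapped between the groups. Egln2, which is not a member, was 90.7, 94.8 and 97.7 CPM in mutant-labelled libraries and 89.8, 87.4 and 83.4 CPM in wild-type libraries. Its mutant-labelled libraries all lay above its wild-type libraries, which held for 7.42% of all tested genes. The Egln2 log2 fold change was 0.12 (SE 0.06, edgeR adjusted p = 0.749, paired 0.221).

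Ndrg1, a cytosolic protein gene induced by hypoxia and growth arrest, was the only one of the 32 members whose groups did not overlap. Its level was 189, 198 and 189 CPM in mutant-labelled libraries 1 to 3 and 161, 169.6 and 159 CPM in wild-type libraries 1 to 3. Every mutant-labelled library thus lay above every wild-type library, which held for 7.42% of all tested genes, and the reverse order for 6.09%. The log2 fold change was 0.24 (SE 0.05, n = 3 per group, edgeR adjusted p = 0.274), a 1.18-fold difference. Paired it was 0.24 (SE 0.04, edgeR adjusted p = 0.00306), with log2 ratios of 0.24, 0.22 and 0.25 in the 3 pairs, and DESeq2 gave an adjusted p of 0.0440. The paired adjusted p was 0.132 without pair 3 and 0.00979 without pair 1. Ndrg1 spans chr15:66929318-66969640 on the minus strand.

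Ndrg1 is also known from oligodendrocytes and other glia. Of 6 oligodendrocyte-lineage markers tested none passed either fit. For 1 of them every mutant-labelled library lay above every wild-type library, as for 7.42% of all tested genes, and for none the reverse. The 7 markers of this list summed to 198, 202 and 217 CPM in mutant-labelled libraries and 215, 194 and 214 CPM in wild-type libraries. Mog, a marker of mature oligodendrocytes, was at most 0.208 CPM in mutant-labelled and 0.338 CPM in wild-type libraries. Of 10 radial glia and astrocyte markers, the glutamate transporter gene Slc1a2 rose in the paired fit by 0.26 on the log2 scale (edgeR adjusted p = 0.00350), and the 9 others did not pass. DESeq2, fitted without pairing, gave Slc1a2 an adjusted p of 0.0196. Those 10 summed to 1386, 1299 and 1382 CPM in mutant-labelled libraries and 1370, 1202 and 1302 CPM in wild-type libraries. Their part in the Ndrg1 result was not tested.

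**Figure D4:**
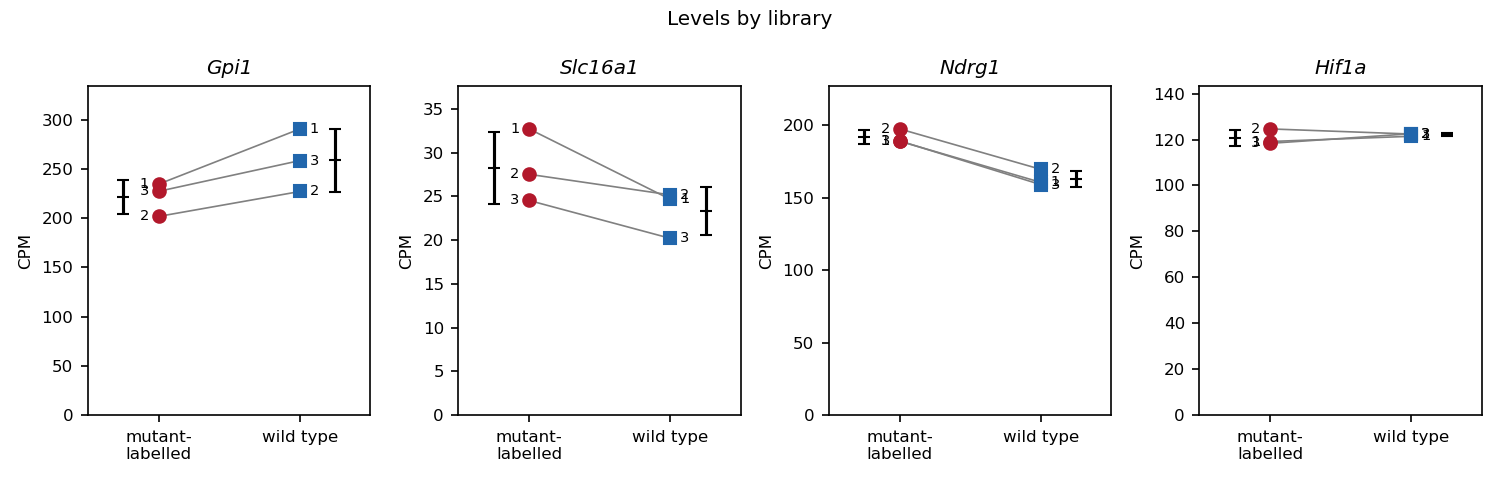
CPM (vertical axis from 0) of Gpi1, Slc16a1, Ndrg1 and Hif1a in each library, mutant-labelled as red circles on the left and wild type as blue squares on the right, with lines joining libraries of the same number and black marks giving the mean and SD of 3 libraries. All lines climb toward wild type for Gpi1 and descend for Slc16a1 and Ndrg1, and for Ndrg1 alone the groups stand apart.

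The remaining hypoxia-induced genes did not pass in either fit on all 6 libraries. Vegfa, the main growth factor for vessels, was 170.3, 138 and 158 CPM in mutant-labelled libraries and 154, 143 and 157 CPM in wild-type libraries. The mitophagy receptor genes Bnip3 and Bnip3l had log2 fold changes of −0.13 (SE 0.11) and −0.07 (SE 0.07), with paired adjusted p = 0.330 and 0.489 in edgeR. Bnip3 was 41.7, 33.98 and 39.4 CPM in mutant-labelled libraries and 43.6, 36.3 and 45.7 CPM in wild-type libraries, lower in each pair but overlapping. Ddit4, which restrains mTORC1 signalling under stress, was 99.3 ± 4.80 CPM in mutant-labelled and 99.6 ± 5.06 CPM in wild-type libraries (SD, n = 3 each). P4ha1, a collagen prolyl hydroxylase subunit gene, was 41.5, 35.2 and 30.9 CPM in mutant-labelled libraries and 34.4, 38.4 and 28.7 CPM in wild-type libraries. Mif had a log2 fold change of 0.03 with a 95% interval of −0.13 to 0.18.

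The hypoxia genes with the lowest counts had wide intervals or were not tested. Ankrd37, an ankyrin repeat gene, had 6.88, 4.88 and 5.49 CPM in mutant-labelled libraries and 5.31, 5.17 and 4.68 CPM in wild-type libraries. The Ankrd37 log2 fold change was 0.18 with a 95% interval of −0.21 to 0.58. Adm, which encodes the vasodilator peptide adrenomedullin, had 60, 41 and 33 reads in mutant-labelled libraries and 11, 50 and 21 reads in wild-type libraries. Its log2 fold change was 0.60 (SE 0.51, edgeR adjusted p = 0.888), and the wild-type libraries alone spanned from below to above 2 of the mutant-labelled libraries. Car9, a carbonic anhydrase gene strongly induced by hypoxia in many cells, had 7, 3 and 4 reads in mutant-labelled libraries and 2, 5 and 0 reads in wild-type libraries and was not tested. Any difference in Car9 was not detectable at this depth.

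Summed over the 12 tested hypoxia genes, the level was 1180, 1163 and 1173 CPM in mutant-labelled libraries and 1152, 1116 and 1160 CPM in wild-type libraries. Each mutant-labelled sum lay above each wild-type sum. Without Ndrg1 the sums were 991, 965 and 984 CPM in mutant-labelled libraries and 992, 946 and 1001 CPM in wild-type libraries, and the groups overlapped.

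Other genes of these pathways, from lists that do not hold the members, gave the same sparse picture of calls. Of 20 further glycolysis genes tested none passed either fit, with a median log2 fold change of −0.02. The largest were the monocarboxylate transporter Slc16a7, at −0.39 (SE 0.17), and Tigar, a fructose bisphosphatase that lowers glycolytic flux, at 0.27 (SE 0.07). Tigar was 28.1, 27.1 and 27.3 CPM in mutant-labelled libraries and 21.7, 24.0 and 22.6 CPM in wild-type libraries, without overlap, and its adjusted p in edgeR was 0.417, paired 0.0624. Of 11 genes of pyruvate entry and use in mitochondria and 7 of the pentose phosphate pathway none passed either fit, with medians of −0.04 and 0.05. The largest were Pdp2 at 0.34 and Pdk4 at −0.20 in the first list and Rpia at 0.21 and Pgd at 0.09 in the second.

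Of 15 genes of the oxygen-sensing machinery none passed either fit, with a median of −0.03, and the ubiquitin ligase gene Siah2 and Hif3a had the largest log2 fold changes, both −0.22. Of 33 further hypoxia-induced genes tested, with a median of −0.00, the paired fit called 1 higher and none lower. For all tested genes the paired shares were 1.97% higher and 1.49% lower. The gene called higher was Ccng2, an unusual cyclin linked to growth arrest. It was at 141, 141 and 136 CPM in mutant-labelled libraries and 108, 107 and 100.9 CPM in wild-type libraries. The groups did not overlap, and the log2 fold change was 0.40 (SE 0.05, edgeR adjusted p = 0.0773, paired 8.4e-05). DESeq2, fitted without pairing, gave Ccng2 an adjusted p of 1.24e-06. In this list mutant-labelled libraries lay wholly above for 4 genes and wholly below for 2, beside 7.42% and 6.09% of all tested genes. Lox and Stc2 had larger log2 fold changes, −0.82 and 0.46, and did not pass. In the same fits 10 activity-induced genes tested had 1 lower without pairing and 5 lower with it, with a median of −0.83. Of all tested genes 0.0274% were lower without pairing and 1.49% with it. Because the gene lists were chosen with earlier results of these data known, this list is no independent yardstick for the members. The difference between these lists was not tested.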

How the data were processed

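RNA sequencing of 6 libraries was used, 3 labelled Tshz3 mutant and 3 wild type. The kit was TruSeq Stranded RNA, per the labels' protocols. The authors deposited raw counts of reads per gene symbol, without normalization. HTSeq 0.5.3p9, Bowtie2 2.1.0, TopHat2 2.0.9, CASAVA 1.8.2 and the build mm10 are listed in the submitters' processing notes. Annotation, settings and strand option of the counting were not given in the sources used here. Columns were matched to samples by title, and 0 sample columns were left unused.

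The test on counts was edgeR 4.0.16 under R 4.3.3 (quasi-likelihood, robust, TMM scaling, default expression filter, two-sided), with Benjamini-Hochberg adjustment over 14618 genes and a threshold of 0.05. Standard errors came from the F statistic. DESeq2 1.42.0, other scalings, no filter, each library left out and the library number as a block were alternatives. The fits were tested on simulated counts with paired libraries, where the paired fit made more false calls than its threshold allows. CPM used TMM-scaled library sizes. TPM was computed from GENCODE M21 exon lengths (GRCm38), found for 21777 symbols. Copies were searched with BLAST 2.17.0. Same-numbered libraries correlated at 0.67, 0.60 and 0.52 in their deviations from group means over 12790 genes, which is why paired values are given. This pairing comes from the data, since the labels do not say what a number shares. P-values of the unpaired fit measure the spread between pools of embryos. Those of the paired fit measure the spread that remains after differences between library numbers are taken out.

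Members and gene lists were chosen with earlier results of these data known, and the oligodendrocyte and choroid plexus lists were added after these values were seen. All members are named. Of each other pathway list the genes named are those past the threshold in either fit and the 2 with the largest change at a mean log2 CPM of at least 1. Egln2 is also named, next to Egln1 and Egln3. Tigar and the adult beta-globin gene were found under older symbols.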

Additional observations from a re-analysis of the deposited data

How the results depend on the processing

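Paired and unpaired calls differed most. Among all genes, 11 passed in the edgeR fit without a block, 17 with upper quartile scaling, 20 without a low-count filter, 102 in DESeq2 and 506 with the replicate block, and 3 to 1874 when libraries or pairs were left out (3 to 35 without a block, 62 to 1874 with it). Glycolysis genes called numbered 0 under every alternative without a block, 1 with the replicate block and 0 to 5 when libraries or pairs were left out. Hypoxia genes called numbered 0 in edgeR without a block, 1 in DESeq2, 1 with the replicate block and 0 to 3 when libraries or pairs were left out. With 1 of the 3 pairs removed, the paired fit has 1 degree of freedom. Besides Gpi1 and Ndrg1, calls made only without pair 2 were Slc16a1, Pfkfb3 and Adm higher and Pfkp, Aldoa and Bnip3l lower.

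Many members changed sign in some fits, and the cause was not tested. Most of them had small changes, but Adm had the largest log2 fold change of the tested members. Pfkl turned to 0.000176 with DESeq2 size factors, 0.00138 in DESeq2, 0.00656 without a filter and 0.00164 with the replicate block, and Ddit4 to 0.00448 without a filter. When single libraries or pairs were left out, log2 fold changes ran from −0.0372 to 0.232 for Hk2, −0.0888 to 0.0584 for Pfkl, −0.0977 to 0.0719 for Tpi1, −0.0488 to 0.0244 for Gapdh, −0.125 to 0.0484 for Pgk1, −0.106 to 0.0239 for Pgam1, −0.136 to 0.00674 for Eno2, −0.0403 to 0.109 for Ldha, −0.0261 to 0.0919 for Ldhb and −0.051 to 0.109 for Pdk1. They ran from −0.125 to 0.282 for Slc16a3, −0.0327 to 0.118 for Vegfa, −0.0706 to 1.46 for Adm, −0.0165 to 0.0382 for Egln1, −0.0358 to 0.106 for Egln3, −0.0452 to 0.0703 for Ddit4, −0.0316 to 0.197 for P4ha1, −0.0195 to 0.0973 for Mif and −0.0398 to 0.00196 for Hif1a. The other 13 tested members, Gpi1 and Ndrg1 among them, kept their sign in each of these fits. Few reads limit Car9 and Slc16a3. Adm had few reads and also varied widely among wild-type libraries, from 11 to 50 reads.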
